A study of Mus musculus with 3 samples.

Results

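The JAK-STAT and CNTF response genes described here are 10 of the 31744 gene symbols in the count matrices: the receptor chains Osmr, Lifr and Il6st, the transcription factor Stat3, the feedback inhibitors Socs3, Socs2 and Cish, and the targets Bcl3, Pim1 and Cebpd. They were chosen by name, with earlier results of these data known, and all 10 symbols were present in each of the 3 matrices. Mouse embryonic fibroblasts of the Hb9::GFP genotype, in which the promoter of a motor neuron gene (Hb9, now Mnx1) drives GFP, were driven toward induced motor neurons and profiled by 3′ single-cell RNA sequencing. All groups received LNI, a cassette of Lhx3, Ngn2 tagged with x3HA and Isl1, and DDRR, which joins HRAS(G12V), an activated Ras, to p53DD, a fragment that blocks p53. At 14 dpi (the labels' time unit), cells sorted as Hb9::GFP-positive came from 1 culture with supplements and from 1 without them. The library with supplements has no treatment label of its own and was assigned from its title and the study's design text. The supplements were BDNF, CNTF, GDNF, FGF and the small molecule RepSox. Dissociation at 14 dpi used papain and DNase. The remaining library, at 4 dpi, came from a culture that also had supplements; its cells were released with trypsin and sorted for low CellTrace-FarRed, a dye diluted by division.

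Ciliary neurotrophic factor (CNTF) belongs to the interleukin-6 family of cytokines. It binds CNTFR, which has no cytoplasmic signalling part, and brings together LIFR and gp130, the product of Il6st. Janus kinases bound to these chains phosphorylate STAT3, which enters the nucleus and raises transcription of its targets, among them Socs3, whose protein shuts the receptor complex down again. Oncostatin M, a related ligand to which fibroblasts respond, uses OSMR with gp130, and motor neurons are a classical responder to CNTF.

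STAT dimers bind a palindrome of the form TTCNNNGAA, and the promoters of members were searched for it because a match would show where such a response could be read in the sequence. The window was 250 bases before to 50 bases after each start in RefSeq promoters (build GRCm38.p6, whereas the counts were made on GRCm39), on both strands, and no overlap with another motif was searched for. Of the 10 members, 8 are in the table, and 2 of these 8, Cish and Socs3, held the motif, against 9.55% of all 27025 gene symbols in the table (2582). Over promoters, of which the 8 members have 10, the share is 8.30% of all 32851 (2726). The 30 bases that hold it are chr9:107296654-107296683 on the plus strand for Cish, across the annotated start, and chr11:117969501-117969530 on the minus strand for Socs3, 154 bases before the start. Capitals mark the motif, which occurs 2 times in the Cish window and 1 time in the Socs3 window.
Cish: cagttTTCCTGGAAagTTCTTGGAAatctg
Socs3: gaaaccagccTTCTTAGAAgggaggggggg
A match is a description of letters and not evidence of binding, and its absence in the windows of Bcl3, Stat3, Il6st, Osmr, Lifr and Pim1 says only that these letters are not there. Socs2 and Cebpd were the members not matched in the table.

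Each group holds 1 library, so no difference has a replicate check, no test between groups was possible, and supplements and culture cannot be told apart. After filtering, 2314 cells with supplements, 3716 without them and 4492 at 4 dpi were kept, with medians of 14380.5, 10664 and 2312.5 unique molecular identifiers (UMIs, each a counted transcript) per cell. Between any pair of libraries, 3 to 5 cell barcodes were shared. Levels are counts per 1000000 UMIs (CPM) summed over cells, with exact 95% Poisson intervals in parentheses, and ratios are log2 ratios of CPM with exact 95% binomial intervals. Both kinds of interval cover counting error only. A difference was called when it was at least 2-fold, its interval left out 0 and at least 1 side reached 10 CPM, and a gene was tested when it reached that level. The comparisons below reuse the same 3 libraries, so they are not independent of one another.

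Cells were also split by a neuronal and a fibroblast transcript, Stmn2 (a microtubule regulator of neurons) and Col1a1 (a collagen). Cells with at least 1 Stmn2 UMI and no Col1a1 UMI made up 54.0% of cells with supplements (1250), 20.9% without supplements (775) and 0.801% at 4 dpi (36). The reverse class, Col1a1-positive cells, made up 8.34% (193), 34.9% (1296) and 40.8% (1832). The other cells had both transcripts (89, 210 and 12 cells) or neither (782, 1435 and 2612 cells). Over 15 other neuronal markers, the summed level at 14 dpi was 11861 CPM in Stmn2-positive and 4462 CPM in Col1a1-positive cells with supplements, and 10628 against 2898 CPM without them. Over 15 other fibroblast markers the order was the opposite, with 1413 against 11680 CPM and 980 against 7948 CPM. Macrophage markers (8 genes) summed to between 4.65 and 6.13 CPM and glia markers to between 5.45 and 12.3 CPM in these classes at 14 dpi, and 2 to 4 of the 8 macrophage markers were at 0 in 3 of the 4 classes. The 36 Stmn2-positive cells at 4 dpi held only 98586 UMIs, so a count of 0 there allows up to 30.4 CPM (3 UMIs).

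In the Hb9::GFP-positive libraries taken whole, none of the 10 genes was called higher with CNTF-containing supplements than without them, and 2 were called lower, Osmr and Cebpd. Of the 9374 genes at 10 CPM or more in either library, 9.97% were called, 4.79% higher and 5.18% lower. Of the 10 members, 9 reached that level and had a median log2 ratio of -0.45, beside 0.03 over all genes tested. In the Stmn2-positive cells alone, 0 of the 7 members that reached 10 CPM were called, where 11.3% of all genes tested were, 4.41% higher and 6.86% lower. The median log2 ratio of these 7 genes was -0.19, beside -0.06 over all genes tested. Socs3, Bcl3 and Osmr lay under 10 CPM in these cells in both libraries and so could not be called.

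**Figure D1:**
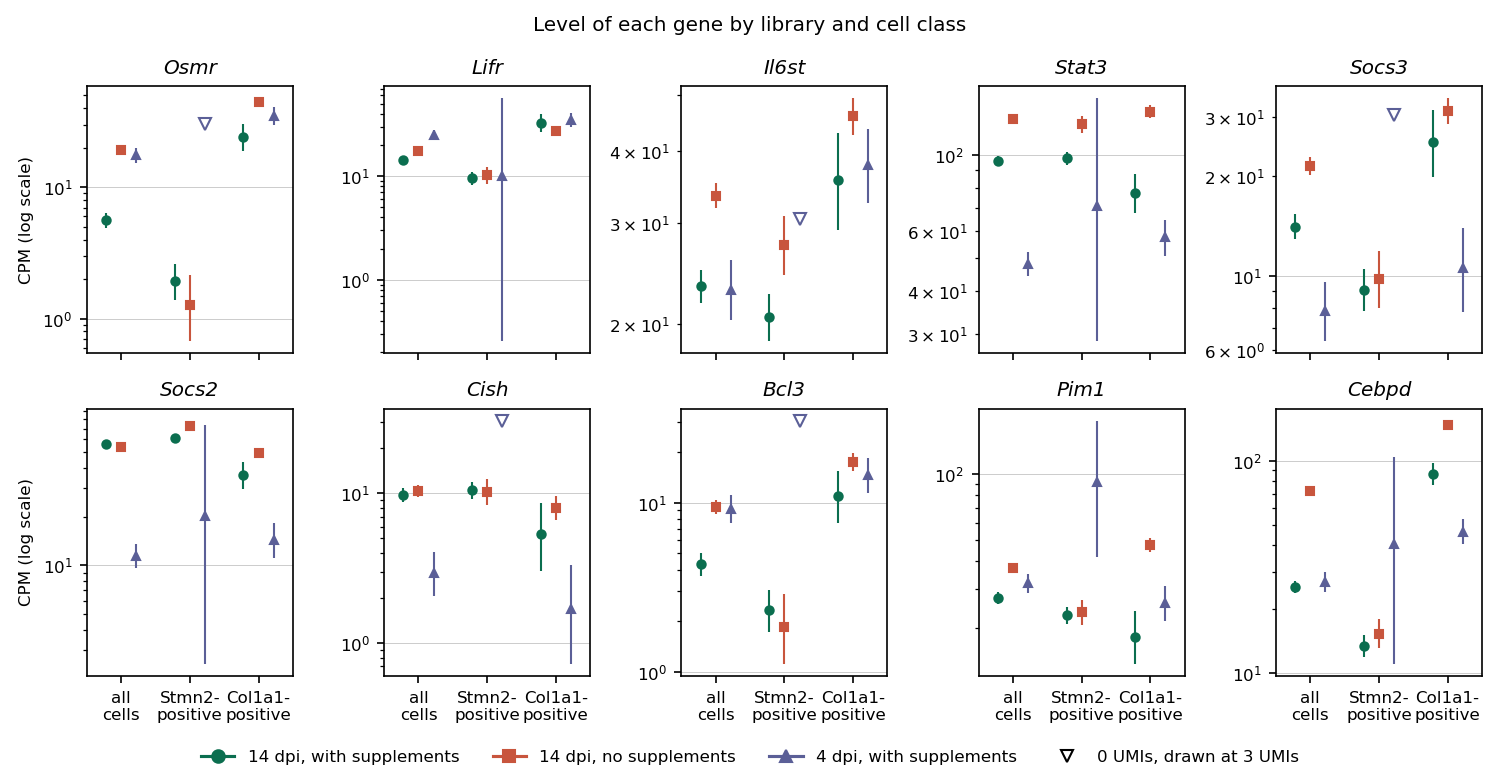
Level of each gene in CPM (log axis, a separate scale in each panel) in all kept cells, Stmn2-positive cells and Col1a1-positive cells of the 3 libraries; bars are 95% Poisson intervals and open triangles mark 0 UMIs, drawn at the level of 3 UMIs. Osmr, Bcl3 and Cebpd sit far lower in Stmn2-positive than in Col1a1-positive cells at 14 dpi, while Socs2, Cish and Stat3 differ by less than 2-fold between those classes.

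Among the receptor chains, Osmr (ENSMUSG00000022146), the oncostatin M receptor, showed the widest range. Over all cells it stood at 5.60 CPM (4.86 to 6.42) with supplements, 19.1 CPM (17.9 to 20.4) without supplements and 17.5 CPM (15.3 to 20.1) at 4 dpi. The library with supplements was therefore the low one, at a log2 ratio of -1.77 (-1.996 to -1.55) to the library without them. In Stmn2-positive cells Osmr was scarce, with 41 UMIs in 1250 cells (1.93 CPM) with supplements, 13 UMIs in 775 cells (1.26 CPM) without them and 0 UMIs in 36 cells at 4 dpi. In Col1a1-positive cells it reached 23.9, 44.3 and 35.0 CPM. At 14 dpi the intervals of the 2 classes did not overlap in either library, and Osmr was 12.4-fold lower in Stmn2-positive cells with supplements and 35.0-fold lower without them. The Col1a1-positive cells, 8.34% of cells with supplements and 34.9% without, held 35.0% and 79.5% of all Osmr UMIs.

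Median depths were 15350 UMIs in Stmn2-positive and 14271 in Col1a1-positive cells with supplements, and 11581 and 10615.5 without. When each cell was thinned to 1000 UMIs, leaving out 12, 1, 3 and 4 shallower cells of these classes, an Osmr UMI was found in 0.242% of Stmn2-positive and 2.60% of Col1a1-positive cells with supplements, and in 0.259% and 5.96% without them. Before thinning, 33 of 1250 and 45 of 193 cells had one with supplements, and 13 of 775 and 448 of 1296 without. The collagen Col3a1, which neurons should lack, was found in 3.39% and 1.68% of thinned Stmn2-positive cells and in 70.8% and 57.3% of thinned Col1a1-positive cells. How much of the Osmr signal in Stmn2-positive cells is free RNA was not tested.

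Lifr (ENSMUSG00000054263) encodes the receptor chain that CNTF and leukaemia inhibitory factor share. Its level over all cells was 14.3 CPM (13.1 to 15.6) with supplements, 17.7 CPM (16.5 to 18.9) without them and 24.99 CPM (22.3 to 28.0) at 4 dpi. In Stmn2-positive cells at 14 dpi Lifr stood at 9.57 CPM with supplements and 10.2 CPM without, a log2 ratio of -0.09 (-0.44 to 0.26). The ratio was 1.14, not called, when cells were thinned to 1000 UMIs and classed anew on the thinned counts, whereas with the classes kept a Lifr UMI was found in 1.13% of thinned cells with and 1.42% without supplements. Col1a1-positive cells held more, 32.6, 27.2 and 34.8 CPM in the 3 libraries. Lifr was 1 of the genes called lower in Stmn2-positive than in Col1a1-positive cells in both 14 dpi libraries.

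Il6st (ENSMUSG00000021756) encodes gp130, the chain that most interleukin-6 family receptors use. It stood at 23.2 CPM (21.7 to 24.9) with supplements, 33.4 CPM (31.8 to 35.1) without them and 22.9 CPM (20.3 to 25.8) at 4 dpi over all cells. The library without supplements was the high one, and the other intervals overlapped. The same order held within classes at 14 dpi, with 20.6 against 27.4 CPM in Stmn2-positive cells, a log2 ratio of -0.42 (-0.64 to -0.19), and 35.5 against 45.9 CPM in Col1a1-positive cells. Stmn2-positive cells had less Il6st than Col1a1-positive cells in both libraries, at log2 ratios of -0.79 and -0.74, short of 2-fold. The chain that gives the CNTF receptor its ligand specificity, Cntfr, ran the other way between classes. It stood at 28.8 CPM in Stmn2-positive and 13.3 CPM in Col1a1-positive cells with supplements, at 50.7 and 20.9 CPM without them, and at 1.64 CPM (20 UMIs) over all cells at 4 dpi.

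Stat3 (ENSMUSG00000004040) encodes the transcription factor that the complex activates, and its transcript does not report its phosphorylation. Over all cells it stood at 95.8 CPM (92.7 to 99.1) with supplements, 127.5 CPM (124.3 to 130.8) without them and 48.1 CPM (44.3 to 52.2) at 4 dpi, and none of these intervals overlapped. With supplements it was lower in both classes, at 97.8 against 122.7 CPM in Stmn2-positive cells, a log2 ratio of -0.33 (-0.43 to -0.23), and at 77.1 against 133.5 CPM in Col1a1-positive cells, -0.79 (-0.99 to -0.60). Between classes it differed little: the log2 ratio of Stmn2-positive to Col1a1-positive cells was 0.34 (0.15 to 0.55) with supplements and -0.12 (-0.22 to -0.02) without them.

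Socs3 (ENSMUSG00000053113) encodes the inhibitor that binds gp130 and is a standard transcriptional readout of STAT3. It stood at 14.1 CPM (12.9 to 15.3) with supplements, 21.4 CPM (20.1 to 22.8) without them and 7.87 CPM (6.37 to 9.61) at 4 dpi over all cells. In Stmn2-positive cells the intervals of the 14 dpi libraries overlapped, with 9.10 CPM (193 UMIs) with supplements and 9.82 CPM (101 UMIs) without them, a log2 ratio of -0.11 (-0.47 to 0.25). A change of 2-fold in either direction lies outside that counting interval. Col1a1-positive cells had 25.2, 31.3 and 10.5 CPM in the 3 libraries, and Socs3 was called lower in Stmn2-positive than in Col1a1-positive cells at 14 dpi, at log2 ratios of -1.47 with supplements and -1.67 without. With supplements, 43.8% of all Socs3 UMIs lay in the cells that had neither Stmn2 nor Col1a1, which held 29.9% of the library's UMIs. Without them the share was 32.7%, in cells that held 34.7% of UMIs. The Socs3 level in these cells was similar, at 20.6 CPM with and 20.2 CPM without supplements.

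Socs2 and Cish encode inhibitors known mainly as targets of STAT5 downstream of growth hormone and related cytokines. Socs2 (ENSMUSG00000020027) stood at 56.1 CPM (53.7 to 58.5) with supplements, 53.8 CPM (51.7 to 56.0) without them and 11.5 CPM (9.65 to 13.5) at 4 dpi over all cells. The 14 dpi libraries thus overlapped and both were far above the earlier one. In Stmn2-positive cells Socs2 stood at 61.3 CPM with supplements and 72.8 CPM without, a log2 ratio of -0.25 (-0.38 to -0.12), and in Col1a1-positive cells at 36.2 and 49.2 CPM. Together with Cish it was on the Stmn2-positive side of the class comparison, at 0.76 (0.48 to 1.06) with supplements and 0.57 (0.42 to 0.71) without. Its UMIs were uneven over the cells with supplements, where 22 of 2314 cells had 10 or more and held 15.4% of them, against 11 of 3716 cells and 5.76% without. A cut of 10 UMIs is easier to reach with supplements, where the median depth was 14380.5 against 10664 UMIs. In Col1a1-positive cells, 0 of 193 cells with and 7 of 1296 cells without supplements had 10 or more, the latter holding 11.6%. The highest count in those 193 cells was 9, and so few cells cannot show a difference in so rare a group.

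Cish (ENSMUSG00000032578), the founding member of the SOCS family, was a rare transcript in each library. Its level over all cells was 9.73 CPM (8.75 to 10.8) with supplements, 10.4 CPM (9.49 to 11.4) without them and 2.95 CPM (2.07 to 4.08) at 4 dpi. Stmn2-positive cells had 10.5 and 10.2 CPM at 14 dpi, a log2 ratio of 0.04 (-0.31 to 0.38). The Col1a1-positive cells had 5.31 CPM (16 UMIs), 8.01 CPM and 1.69 CPM (8 UMIs). The class ratio was 0.98 (0.25 to 1.81) with supplements and 0.35 (-0.04 to 0.73) without, neither of them called.

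**Figure D2:**
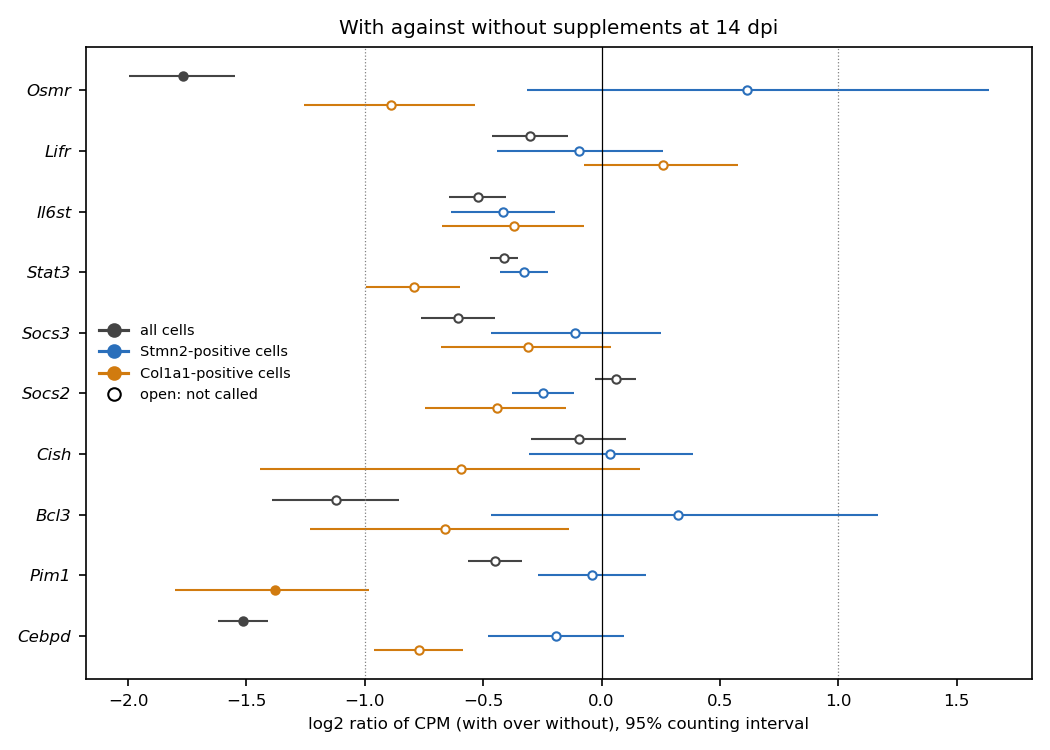
Log2 ratio of CPM with over without supplements at 14 dpi for each gene in all cells, Stmn2-positive and Col1a1-positive cells, with 95% binomial intervals; filled points were called and dotted lines mark 2-fold. Osmr and Cebpd are filled in all cells and Pim1 in Col1a1-positive cells, and no Stmn2-positive point is filled. In Stmn2-positive cells Socs3, Bcl3 and Osmr were under 10 CPM in both libraries and were not tested.

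Bcl3 (ENSMUSG00000053175) encodes a nuclear partner of NF-kappa-B and is a STAT3 target. Over all cells it stood at 4.32 CPM (3.68 to 5.05) with supplements, 9.40 CPM (8.53 to 10.3) without them and 9.18 CPM (7.56 to 11.0) at 4 dpi. The library with supplements was the low one, at a log2 ratio of -1.12, but both levels were under 10 CPM. Bcl3 was scarce in Stmn2-positive cells, at 2.31 CPM (49 UMIs) and 1.85 CPM (19 UMIs), and stood at 11.0 and 17.4 CPM in Col1a1-positive cells at 14 dpi.

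Pim1 (ENSMUSG00000024014) encodes a serine-threonine kinase induced by STAT3 and STAT5. Its levels over all cells were 27.3 CPM (25.6 to 29.0) with supplements, 37.2 CPM (35.5 to 39.0) without them and 31.9 CPM (28.8 to 35.2) at 4 dpi. Stmn2-positive cells at 14 dpi stood at 22.9 and 23.5 CPM, a log2 ratio of -0.04 (-0.27 to 0.19). Thinned and classed anew on the thinned counts, Pim1 was called lower with supplements in these cells too, but with the classes kept a Pim1 UMI was found in 3.15% of thinned cells with and 2.72% without supplements. In Col1a1-positive cells it was the 1 gene of 9 called between supplements, at 18.3 CPM (55 UMIs) with and 47.6 CPM without, -1.38 (-1.80 to -0.98); 10.4% of all genes tested were called there, 5.51% higher and 4.89% lower. That ratio was -0.91 when cells were thinned to 1000 UMIs and also classed anew on the thinned counts, which left 95 and 741 Col1a1-positive cells. With the classes kept, thinned cells with a Pim1 UMI made up 1.56% with and 4.02% without supplements. The cells with both Stmn2 and Col1a1 stood highest with supplements, at 69.8 CPM (57.2 to 84.2), but 3 of those 89 cells held 73 of the 108 UMIs.

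Cebpd (ENSMUSG00000071637) encodes C/EBP-delta, a transcription factor of the acute phase response that STAT3 induces. It stood at 25.4 CPM (23.8 to 27.1) with supplements, 72.4 CPM (69.9 to 74.9) without them and 27.0 CPM (24.1 to 30.0) at 4 dpi over all cells. Here the library without supplements stood apart, and the log2 ratio with over without was -1.51 (-1.62 to -1.41). In Stmn2-positive cells the 14 dpi levels overlapped, at 13.4 CPM (11.9 to 15.1) and 15.4 CPM (13.1 to 18.0). In Col1a1-positive cells they were 86.7 CPM (76.5 to 97.9) and 148 CPM (142 to 154), a log2 ratio of -0.77, short of 2-fold. Cebpd was 6.45-fold lower in Stmn2-positive than in Col1a1-positive cells with supplements and 9.63-fold lower without. Without supplements, 70.1% of Cebpd UMIs came from Col1a1-positive cells, and 32 of those 1296 cells had 10 UMIs or more.

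In a sum over all cells, fewer cells of a type and less RNA per cell cannot be told apart, so the levels with supplements were recomputed at the class shares (of UMIs) of the library without them. The log2 ratio of Osmr then went from -1.77 to -0.64, that of Cebpd from -1.51 to -0.64, that of Bcl3 from -1.12 to -0.45 and that of Socs3 from -0.60 to -0.17. With the shares of the library with supplements applied instead, these ratios were -0.30, -0.44, -0.15 and -0.09. For Stat3 and Il6st the change was smaller, from -0.41 to -0.50 and from -0.52 to -0.25 at the shares without supplements. Lifr moved from -0.30 to 0.27 and Socs2 from 0.06 to -0.13, each to the other side of 0. None of the 10 genes had a 2-fold difference in either recomputation.

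**Figure D3:**
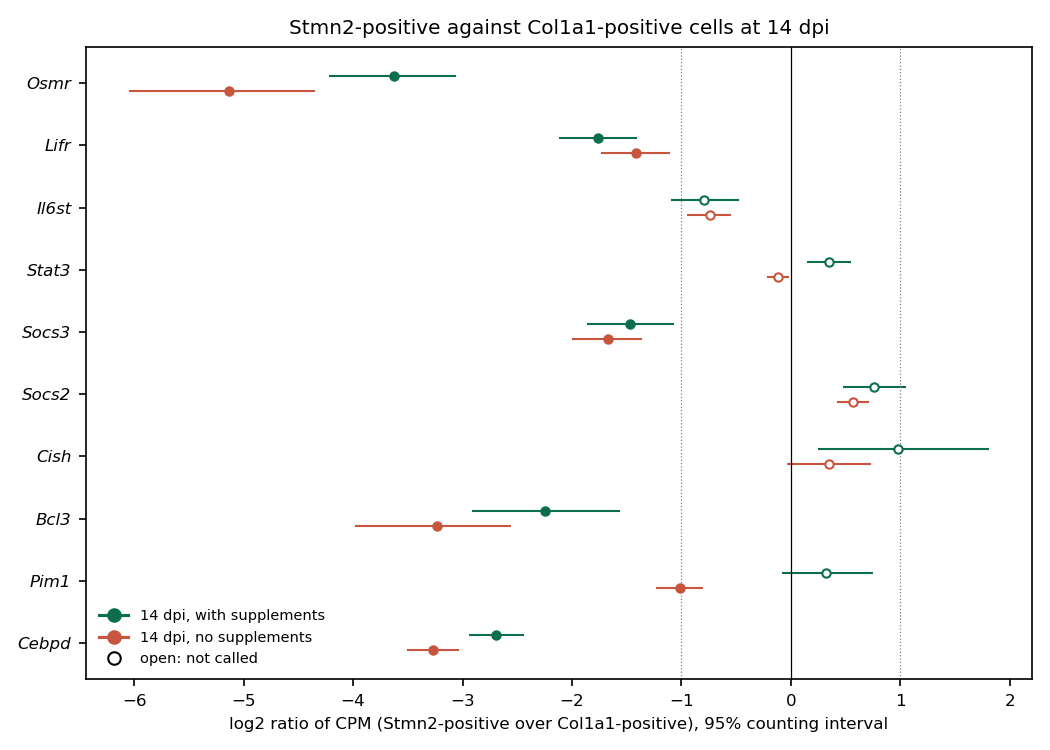
Log2 ratio of CPM in Stmn2-positive over Col1a1-positive cells for each gene in the 2 libraries at 14 dpi, with 95% binomial intervals; filled points were called and dotted lines mark 2-fold. Osmr, Cebpd, Bcl3, Lifr and Socs3 lie below -1 in both libraries, and Socs2 and Cish lie above 0.

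Between classes within a library, the members divided. With supplements 5 of the 10 were called lower in Stmn2-positive than in Col1a1-positive cells (Osmr, Cebpd, Bcl3, Lifr and Socs3), where 25.8% of the 9509 genes tested were called and 11.2% of those tested were called lower. Without supplements the same 5 and Pim1 were called lower, 6 of 10, where 26.8% were called and 9.77% lower. Pim1 sat at the threshold there, at -1.02, was -0.42 when thinned and classed anew, and was 0.32 (-0.08 to 0.75) with supplements. Socs3 with supplements was -0.86 when classes were set from 4 neuronal and 4 fibroblast genes. The members' median ratio was -1.13 with and -1.21 without supplements, beside medians of 0.18 and 0.22 over all genes tested. Scaling by the median of ratios moved those medians to -0.01 and -0.02 and the share of calls that were higher from 56.5% to 44.3% and from 63.5% to 49.9%. Relative to the median of all genes, each member therefore lies about that much lower than its CPM ratio.

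For comparison, the fibroblast collagens Col1a2 and Col3a1 had class ratios of -2.68 and -5.52 with supplements, and -2.91 and -5.57 without. The summed fibroblast markers in Stmn2-positive cells, 1413 and 980 CPM, were not at 0, and their part in the low Osmr, Bcl3 and Cebpd levels there was not tested. Dividing cells also differed between classes, with 6 cell-cycle genes at 141 CPM in Stmn2-positive and 734 CPM in Col1a1-positive cells with supplements and 100.2 and 553 CPM without. At 4 dpi only Pim1 was called between classes, at 1.82 (0.65 to 2.79) from 9 UMIs in Stmn2-positive cells, in 5 of the 36 cells, which is 1 of 9 members tested where 8.61% of genes were called, 6.00% higher and 2.61% lower. There Socs3, Cish, Bcl3, Osmr and Il6st had 0 UMIs in the 36 Stmn2-positive cells. Apart from Osmr and Il6st, at 35.0 and 37.7 CPM, their Col1a1-positive levels lay under the 30.4 CPM that 0 UMIs allow. The log2 ratio intervals of Osmr and Il6st also held 0, with upper limits of 0.11 and 0.002. No difference was therefore detectable for any of these genes at this depth.

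Osmr and Cebpd also stood higher at each step in a cell's number of Col1a1 UMIs, a split that in part restates the class rule. Osmr stood at 3.26 CPM in cells without Col1a1 UMIs and at 11.7, 13.3 and 37.0 CPM in cells with 1, 2 to 4 and 5 or more, with supplements, against 4.16, 13.9, 21.1 and 55.7 CPM without. Cebpd took the same course, at 19.0, 41.3, 58.6 and 104 CPM with supplements and 27.1, 51.4, 101.8 and 177 CPM without. At each step the value without supplements was the higher one for both genes, but the Osmr intervals of the libraries overlapped at all steps except 5 or more. Socs3 was in this order too, at 13.03, 13.6, 23.1 and 27.6 CPM with supplements and 16.1, 21.4, 25.8 and 32.3 CPM without. Bcl3 broke the order with supplements, at 3.66, 7.40, 11.5 and 8.84 CPM, but rose at each step without them, from 4.66 to 19.5 CPM. Lifr broke it without supplements, at 11.8, 21.4, 20.4 and 28.9 CPM, but rose at each step with them, from 12.2 to 41.99 CPM. The intervals of the steps at these breaks overlapped. Pim1, called between classes without supplements only, had no such order in either library. The first and last steps with supplements hold 2032 and 120 cells, and those without hold 2210 and 862. Socs2 had no such order, at 57.5 CPM in the first and 42.5 CPM in the last step with supplements, and 57.5 and 49.3 CPM without.

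**Figure D4:**
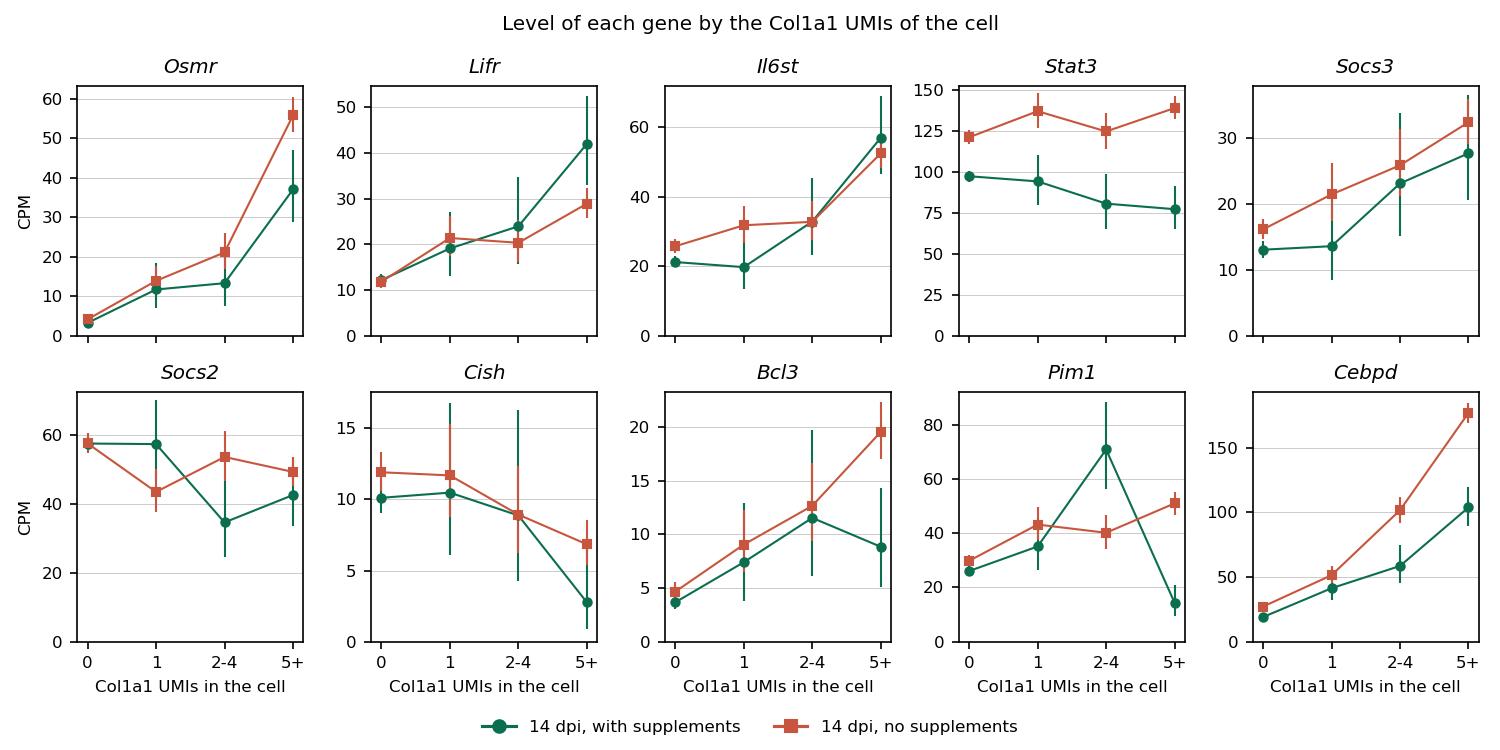
CPM of each gene (linear axes from 0, a separate scale in each panel) in cells with 0, 1, 2 to 4 and 5 or more Col1a1 UMIs in the 14 dpi libraries, with 95% Poisson intervals. Osmr, Cebpd and Socs3 climb across the steps in both libraries, to 37.0, 104 and 27.6 CPM with supplements. The Pim1 point of 71.0 CPM with supplements rests on 80 UMIs in 72 cells. In that library 3 of the 89 cells with both Stmn2 and Col1a1 held 73 of their 108 Pim1 UMIs, and the steps of those 3 cells were not examined.

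Against the 4 dpi library, stage, sort gate, dissociation and depth differ together with time and cannot be told apart. With supplements at both times, Socs2 was called higher at 14 dpi, at 2.29 (2.04 to 2.55), and Osmr lower, at -1.65 (-1.93 to -1.36), which is 2 of 8 members tested where 25.5% of all genes were called, 15.4% higher and 10.1% lower. Without supplements at 14 dpi, 5 of 9 were called, all higher, where 25.3% were called, 15.7% higher and 9.64% lower: Socs2 at 2.23, Cish at 1.82, Socs3 at 1.44, Cebpd at 1.42 and Stat3 at 1.41. Both comparisons share the 4 dpi library, and their medians over all genes tested were 0.11 and 0.09. Stat3 with supplements lay just short of 2-fold at 0.99 (0.87 to 1.12), and Cish, at 1.72, was just under 10 CPM. Leaving out cells with fewer than 1000 genes raised the number called with supplements from 2 to 4.

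Of the rest of the pathway in Stmn2-positive cells at 14 dpi, most components tested were not called between supplements. The same holds for genes at large, of which 11.3% were called in this comparison, 4.41% higher and 6.86% lower. Of 20 other receptors and kinases, 11 were tested, 0 were called higher and 2 lower, the growth hormone receptor Ghr (5.33 against 11.7 CPM, -1.13) and the interferon-gamma receptor chain Ifngr2 (26.0 against 54.9 CPM, -1.08). Jak1 stood at 195.9 and 204.6 CPM, Jak2 at 22.9 and 32.6 CPM. Of 6 other STATs, 2 were tested and 0 called. Stat5a stood at 1.18 and 3.40 CPM and Stat5b at 4.76 and 9.63 CPM. Of 14 other inhibitors, 12 were tested and 0 called, with Socs1 at 9.80 and 7.29 CPM. Transcript of Cntf itself was at 0, 1 and 0 UMIs in the 3 libraries over all cells.

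**Figure D5:**
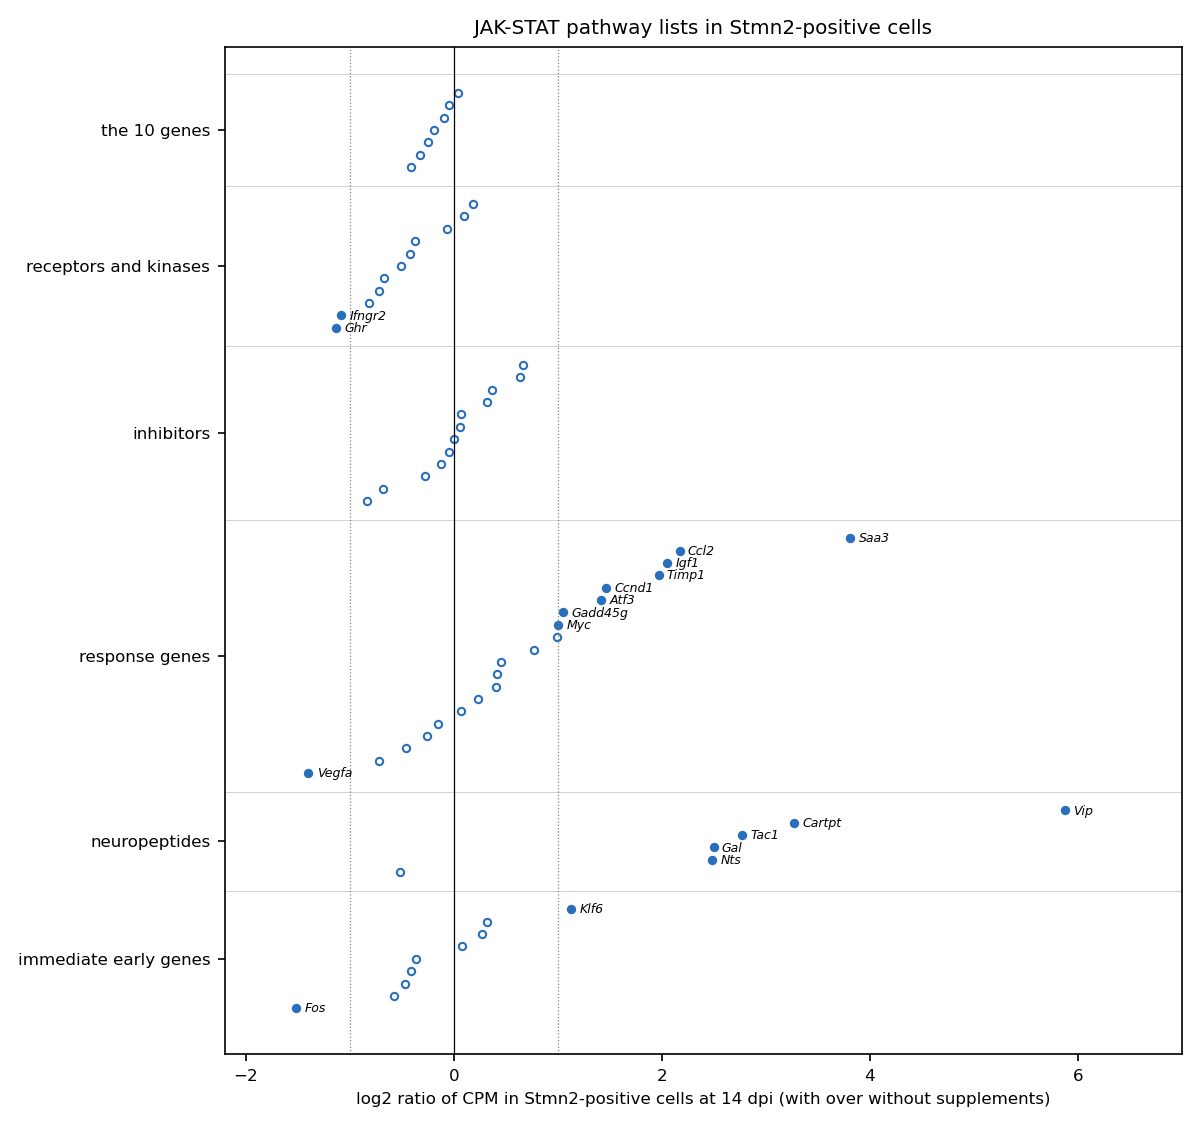
Log2 ratio of CPM in Stmn2-positive cells at 14 dpi, with over without supplements, for each tested gene of 6 lists; each point is a gene, filled where it was called, and dotted lines mark 2-fold. The tested members, which leave out Socs3, Bcl3 and Osmr, and the tested inhibitors stay between the lines, while Saa3 at 3.81 and Vip at 5.87 stand out to the right.

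Other genes known to respond to these cytokines, a list of 30, were measured in the same Stmn2-positive cells. The list was chosen with earlier results of these data known, so its counts are a description. Of these, 20 were tested, 8 were called higher with supplements and 1 lower, where 4.41% and 6.86% of all genes tested were, with a median of 0.61 beside -0.06 over all genes tested. The 4 highest ratios were those of Saa3, an acute phase protein (20.5 against 1.46 CPM, 3.81), the chemokine Ccl2 (37.2 against 8.27 CPM, 2.17), the growth factor Igf1 (14.5 CPM from 308 UMIs against 36 UMIs, 2.05) and Timp1, an inhibitor of metalloproteases (64.7 against 16.5 CPM, 1.97). The gene called lower was the angiogenic factor Vegfa (41.9 against 110.3 CPM, -1.40), named after its values were seen. These genes were spread unevenly: 17 of 1250 cells held 86.9% of the Ccl2 UMIs and 9 cells held 35.2% of the Saa3 UMIs with supplements. For Igf1, 10 cells held 59.7% with supplements, and 1 cell held 25 of the 36 UMIs without them. For Timp1, 28 cells held 38.2% with supplements. In Col1a1-positive cells Timp1 went the other way (138.2 against 307.6 CPM, -1.15), but Igf1 and Ccl2 were higher with supplements there too. Igf1 had 808 UMIs in 193 cells with and 173 UMIs in 1296 cells without supplements. Ccl2 had 974 and 2394 UMIs in the same cells, and Saa3, which differed little in its mean per cell, had 29 and 182. Of those 182 Saa3 UMIs, 157 lay in 5 cells. A Saa3 UMI was found in 9 of 193 cells with and 18 of 1296 without supplements. Cells with 10 UMIs or more numbered 27 for Igf1 (77.0% of its UMIs) and 22 for Ccl2 (88.3%) with supplements. Without supplements they numbered 3 (37.6%) and 45 (88.0%). Of 24 response genes tested in Col1a1-positive cells, 3 were called higher and 8 lower, where 5.51% and 4.89% of all genes were.

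For each list that follows, the shares called over all genes tested in Stmn2-positive cells were 4.41% higher and 6.86% lower with supplements. The lists were also chosen with earlier results of these data known, so their counts are a description. Of 14 fibroblast markers tested in the Stmn2-positive cells, 5 were called higher with supplements, 1 lower and 8 not called. The largest differences were those of the matrix genes Lum (15.4 against 1.94 CPM), Dcn (10.9 against 2.33 CPM), Postn (183.4 against 57.6 CPM) and Sparc (432.6 against 143.7 CPM), and their part in the Timp1, Ccl2 and Igf1 values was not tested. The marker called lower was Thy1, a surface glycoprotein that neurons also make (25.4 against 61.8 CPM). Of 15 neuronal markers 1 was called, Syt1, a calcium sensor of synaptic vesicles (179.5 against 378.6 CPM, lower with supplements). Of 5 motor neuron markers tested, the choline transporter gene Slc5a7 was higher (13.1 against 5.25 CPM) and Mnx1 lower (14.1 against 37.2 CPM), and Chat, the enzyme of acetylcholine synthesis, stood at 2.59 and 8.85 CPM. Lhx3 and Isl1, whose coding sequences are in the cassette, stood at 108.5 and 108.0 CPM with supplements. The 8 motor neuron markers, which include Lhx3 and Isl1, summed to 276.2 CPM with and 274.8 CPM without supplements. From a list of 10 neuropeptide and cholinergic genes, a group that such cytokines can regulate in neurons, 5 of 6 tested were called higher. They were led by Vip (79.8 against 1.36 CPM, 5.87), Cartpt (490.4 against 50.95 CPM, 3.27) and Tac1 (13.3 against 1.94 CPM, 2.77), with Gal at 9047 against 1603 CPM. In Col1a1-positive cells 4 of 5 tested were also called higher, where 5.51% of all genes were. The median there was 3.63, beside 2.63 in Stmn2-positive cells. Of 16 immediate early genes, which dissociation can raise, 9 were tested, with Klf6 called higher (1.13) and Fos lower (-1.51).

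Over the 12 sums of library and cell class (4 classes in each of 3 libraries), the transcripts most like Osmr by Pearson correlation of log2 (CPM plus 10) were Colec12 (r = 0.97), Pdgfrb (0.96), Pros1, Lama4 and Bicc1 (0.95 each), out of 8853 compared. Those most like Socs3 were Zim1 (0.97), Zcwpw1 (0.96), Jcad (0.95), Rpl9-ps6 (0.94) and Gm2000 (0.94). The points share libraries and depth, and the sums of the rare 4 dpi classes hold few UMIs, so the values are a description. Over the 8 sums at 14 dpi alone, the correlations with Osmr were 0.93 to 0.99 and those with Socs3 0.76 to 0.92.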

How the data were processed

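The deposited matrices hold raw counts of UMIs per gene and cell barcode, which the authors produced with Cell Ranger 6.1.1, per the file headers, on GRCm39, per the submitters' processing notes, from 10x Genomics 3′ libraries, per the labels' protocols. The method of cell calling and the treatment of introns are not given in the sources used here. Features of the same symbol were summed (31783 features, 31744 symbols). Cells with at least 500 genes and at most 20% mitochondrial UMIs were kept. No doublet caller was run, and cells with both class transcripts entered neither class.

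UMIs were summed per library and class in Python 3.11.15 with numpy 2.4.6, scipy 1.17.1 and pandas 2.3.3. Deposited totals were 37112015, 46150432 and 12290301 UMIs, where 3 UMIs over all kept cells correspond to 0.0816, 0.0654 and 0.246 CPM. CPM intervals are exact Poisson, ratio intervals and shares Clopper-Pearson, at 95%. The calculation was tested on simulated data. With 1 library a group no count model was fitted and no p-value is given. All 10 members are described. From each further list, counts of calls and up to 4 called genes with the largest ratios in Stmn2-positive cells are named, with Cntfr, Jak1, Jak2, Stat5a, Stat5b and Socs1 always, and the 5 transcripts most like Osmr and Socs3. The collagens, Vegfa, Thy1, Chat, Lhx3 and Isl1 were added with their values in view. The members and lists were chosen with earlier results of these data known. Alternatives changed the cell filter, the scaling, the weight of cells, the level minimum and the class rule. Some genes of these lists are not reported here.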

Additional observations from a re-analysis of the deposited data

Results flagged for a closer look

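Stat3 stood on opposite sides of 0 in the class comparison of the 2 libraries at 14 dpi. The log2 ratio of Stmn2-positive over Col1a1-positive cells was 0.34 (0.15 to 0.55) with supplements, from 2075 and 232 UMIs, and -0.12 (-0.22 to -0.02) without them, from 1262 and 2099 UMIs. Both counting intervals leave out 0, but each group is 1 library and the difference between the ratios was not tested. Col1a1-positive cells with supplements numbered 193, against 1296 without. Under the alternatives listed below, the ratio ran from 0.17 to 0.49 with supplements and from -0.34 to -0.12 without, so neither changed sign.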

How the results depend on the processing

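Each alternative was compared with the reported number of members called. For supplements over all cells, a minimum of 20 CPM left 1 call in place of 2 (Cebpd), and 5 CPM and CPM without mitochondrial and ribosomal protein genes each gave 3, Bcl3 being added. At 20 CPM Bcl3 also left the class calls of both 14 dpi libraries (4 in place of 5 and 5 in place of 6), and Cish those of 14 dpi without supplements over 4 dpi (4 in place of 5). The thinned setting changed depth and class together, since cells were thinned to 1000 UMIs and classed anew on the thinned counts (773 and 427 Stmn2-positive cells at 14 dpi). In Stmn2-positive cells it gave 1 (Pim1, lower) in place of 0. In Col1a1-positive cells, giving each cell the same weight gave 2 (Pim1, Osmr), classes from 4 neuronal and 4 fibroblast genes gave 3 (Pim1, Osmr, Cebpd) and the thinned setting gave 2 (Stat3, Cebpd) in place of 1. For the classes at 4 dpi, a minimum of 1000 genes and the thinned setting each gave 0, and equal weights and the 4-gene classes each gave 2, in place of 1. For 14 dpi with supplements over 4 dpi, 4 were called in place of 2 with a minimum of 1000 genes, without cells with a Mki67 or Top2a UMI, without mitochondrial and ribosomal protein genes, at 5 CPM and with equal weights, and 1 at 20 CPM. The cause was not tested. Of 812 single ratios recomputed, 718 moved by less than their counting interval, 94 moved by more and 0 reversed a called direction. The minimums of 5 and 20 CPM change which genes are tested but no ratio. Their values could not move and are part of the 718, so that number overstates how stable the ratios were. Il6st passed 2-fold between classes under the thinned setting (-1.26 with and -1.06 without supplements). That setting took the Bcl3 class ratio without supplements from -3.23 to -1.32 and the Lifr supplement ratio in Stmn2-positive cells from -0.09 to 1.14, on few UMIs. Median-of-ratios scaling moved the share of calls that were higher at 4 dpi from 69.7% to 46.4%. No paired analysis was possible because each group holds 1 library, and no replicate could be left out. At 4 dpi the 36 Stmn2-positive cells hold too few UMIs to show levels under 30.4 CPM.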
